A study of Homo sapiens with 6 samples.

Results

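SUMO3 and 7 further genes of the SUMO pathway were examined in Huh7 cells by RNA sequencing of total RNA. The 8 genes were SUMO2, SUMO3, SAE1, UBA2, PIAS1, SENP1, SENP3 and RNF4, found by symbol among the 50868 genes of the table, and all 8 had enough reads to be tested. The set was drawn up because SUMO3 was higher in cells that overexpressed the circular RNA hsa_circ_0098181. The SUMO3 difference is therefore given as a description without a test, and the question was whether the other SUMO genes moved with it.

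Huh7 is a cell line from a human liver tumour. In 3 libraries the cells had received a plasmid (PLC5-CIR vector) that carries hsa_circ_0098181, a circle made from exons of SOX5, and in 3 libraries they had received the matching control plasmid. Cells of all 6 libraries were transfected with Lipofectamine 2000 and harvested 48 hours later, so the control cells also carried a plasmid and the transfection reagent. The transfection was transient, in a single cell line, and the share of cells that took up the plasmid was not measured in these libraries.

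Total gene counts ran from 11130902 to 14138262 per library. SOX5, the host gene of the circle, had 24906 to 33577 counts with overexpression and 380 to 453 in the controls, the direction that the labels give. Hepatoma markers were abundant, with ALB at 4357 to 5831 CPM and AFP at 10780.0 to 13251 CPM, where CPM is the read count scaled to the normalised library size. Of the leukocyte markers, PTPRC was read at 0.765 to 1.85 CPM, CD14 at 1.21 to 3.46 CPM and CD3E at 0 to 0.142 CPM. The fibroblast markers COL1A1, COL1A2 and PDGFRB lay between 0.170 and 10.3 CPM. Of the endothelial markers, VWF and CDH5 were at or near 0, and PECAM1 was read at 46.8 to 58.9 CPM. Control replicate 1 stood somewhat apart, with 9.29% of its counts on mitochondrial genes against 6.32% to 7.04% in the other libraries. Triplets of values follow the order of the replicate numbers. Nothing in the labels says whether replicates were separate cultures, so p-values measure the spread between these libraries, which may be technical.

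SUMO proteins are small relatives of ubiquitin that are attached to lysines of other proteins, mostly in the nucleus. The SAE1 and UBA2 proteins form the activating enzyme (E1), and ligases (E3) such as the PIAS family help to choose the substrate. SENP proteases trim SUMO precursors and take SUMO off again. RNF4 and RNF111 are ubiquitin ligases that recognise chains of SUMO and mark the protein for ubiquitin. SUMO2 and SUMO3 are nearly identical as mature proteins and form chains.

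SUMO3 (ENSG00000184900) is annotated at chr21:44805617-44818779 on the minus strand (hg38). Its level was 133, 115 and 117 CPM with overexpression, and 69.3, 62.4 and 59.7 CPM in the controls. The lowest overexpression library lay well above the highest control library. Means were 122 ± 10.0 and 63.8 ± 4.93 CPM (SD, n = 3 each), and the overexpression mean was 1.91 times the control mean. The fitted log2 ratio of overexpression to control was 0.93 ± 0.10 (SE), and it ran from 0.86 to 1.00 when each library in turn was left out. Total RNA of a whole culture cannot tell more transcripts in every cell from a larger share of cells with many transcripts.

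**Figure D1:**
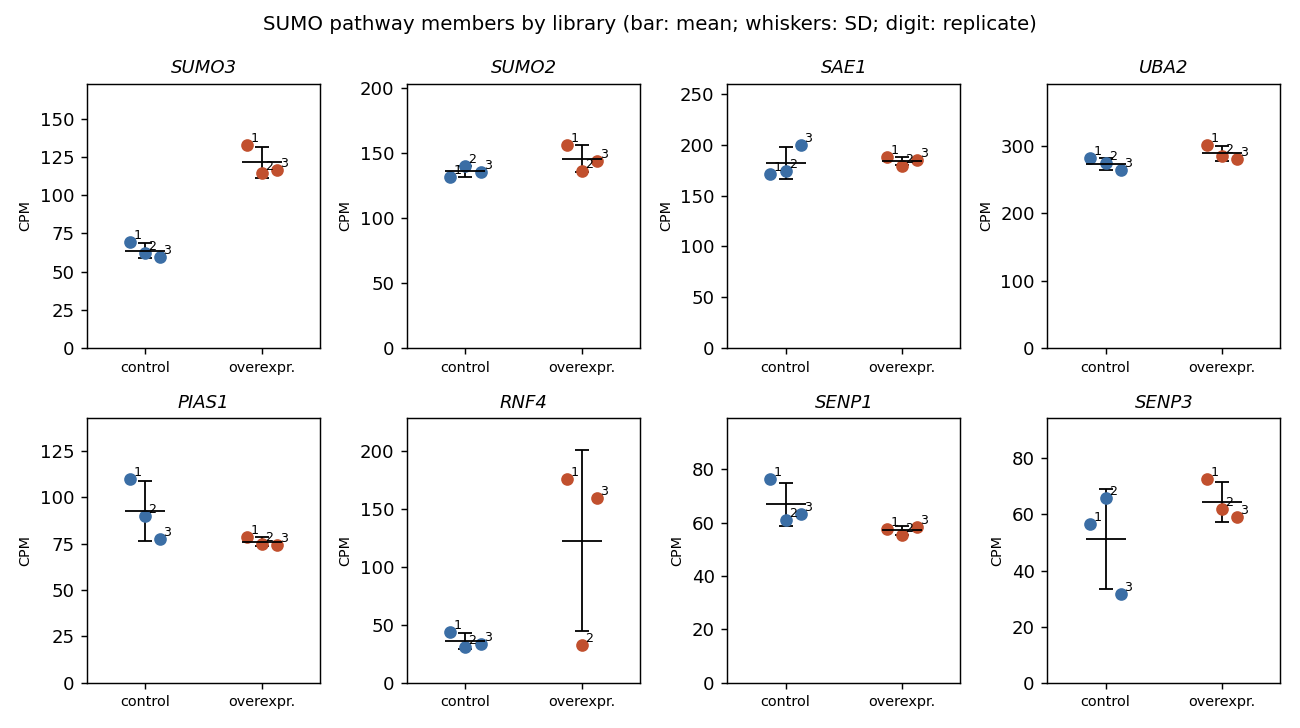
CPM of the 8 genes in each of the 6 libraries, with control libraries in blue and overexpression libraries in orange, the mean as a bar and the SD as whiskers (n = 3 each). The groups do not overlap for SUMO3 and SENP1, and RNF4 in overexpression replicate 2 lies among the controls, at 32.6 CPM.

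SUMO2, the closest relative of SUMO3, did not pass the test. SUMO2 (ENSG00000188612, chr17:75165586-75182983) was at 156, 136 and 144 CPM with overexpression, and at 132, 140.0 and 135 CPM in the controls. The groups overlapped. The fitted log2 ratio of overexpression to control was 0.099 ± 0.088 (SE, edgeR adjusted p 0.832), and it ran from 0.043 without overexpression replicate 1 to 0.14 without overexpression replicate 2. SUMO4, a gene without introns, had 1 to 6 counts per library and was removed by the filter on low counts.

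Compared per length, as CPM per kb of merged exons, SUMO3 was below SUMO2 in the controls and stood beside it with overexpression. In the controls SUMO3 stood at 23.3 ± 1.80 and SUMO2 at 40.3 ± 1.22 CPM per kb (SD, n = 3 each). With overexpression SUMO3 stood at 44.5 ± 3.67 and SUMO2 at 43.1 ± 3.08 CPM per kb (SD, n = 3 each), and the values of SUMO3 and SUMO2 overlapped. SUMO3 made up 51.2%, 51.1% and 50.02% of the SUMO2 and SUMO3 pool per kb with overexpression, against 39.3%, 35.5% and 35.2% in the controls. The summed level of both genes was 267 ± 20.2 CPM with overexpression and 199.5 ± 3.86 CPM in the controls (SD, n = 3 each). These shares contain the SUMO3 value that led to the choice of the genes, and no test was made on them. The SUMO2 values leave out reads counted on its pseudogenes, while no SUMO3 pseudogene was listed. The share of SUMO3 may therefore be overstated in both groups.

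**Figure D2:**
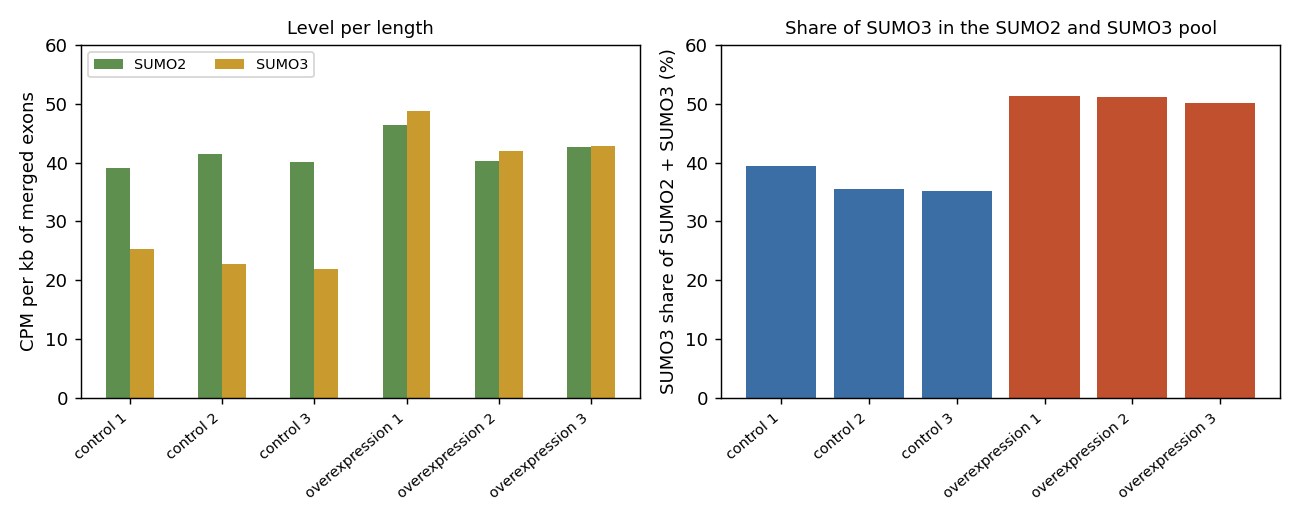
Left, level of SUMO2 and SUMO3 in each library as CPM per kb of merged exons. Right, share of SUMO3 in the sum of SUMO2 and SUMO3 on that scale, which is 35.2% to 39.3% in the controls (blue) and 50.02% to 51.2% with overexpression (orange).

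SUMO2 has processed pseudogenes in the genome, and reads from near-identical copies may be split between them. SUMO2P1 held 1213 counts over the 6 libraries against 10632 for SUMO2. The pseudogenes named after SUMO2 together took 14.1% ± 0.951 of the joint counts in the controls and 14.002% ± 0.937 with overexpression (SD, n = 3 each). With these counts added, the log2 ratio of SUMO2 was 0.098 (edgeR adjusted p 0.832). A further gene, AC005000.1, shares 189 of the 3359 SUMO2 stretches of 31 bases and had 736 counts. It was left out of the share and of the sum, so both may understate the split. SUMO3 shared few stretches with its relative: of the 2754 distinct stretches of 31 bases in the annotated SUMO3 transcripts, 3 were also present in SUMO2. On either strand, 56 were found in MTHFD1, which had 8769 counts over the 6 libraries, and 56 in AL122035.2, which had 9.

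Both genes of the activating enzyme were abundant, and neither passed the test. SAE1 (ENSG00000142230, chr19:47113274-47210636) was at 188, 179 and 185 CPM with overexpression and at 171, 174 and 199.98 CPM in the controls, with overlapping groups and a log2 ratio of 0.018 ± 0.091 (SE, edgeR adjusted p 0.974). UBA2 (ENSG00000126261, chr19:34428352-34471251) was at 302, 284 and 281 CPM with overexpression and at 282, 275 and 264 CPM in the controls. The UBA2 groups overlapped as well, with a log2 ratio of 0.080 ± 0.079 (SE, edgeR adjusted p 0.842), which was 0.048 without overexpression replicate 1. The sign of the SAE1 value depended on single libraries, at -0.020 without control replicate 1 and -0.014 without control replicate 2.

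PIAS1, a SUMO ligase of the PIAS family, had a lower mean with overexpression and did not pass the test. PIAS1 (ENSG00000033800, chr15:68054179-68198603) was at 78.7, 74.6 and 74.4 CPM with overexpression, and at 109.5, 90.0 and 77.6 CPM in the controls. The spread lay in the controls, whose lowest value was below the highest overexpression value. The fitted log2 ratio of overexpression to control was -0.28 ± 0.13 (SE, unadjusted p 0.0579, edgeR adjusted p 0.797). Without control replicate 1, the library with the high mitochondrial share, it was -0.14, and the part of that share in the result was not tested. PIAS1 overlaps CALML4 on the opposite strand, as SENP1 overlaps PFKM, and reads of such partners cannot be told apart where counting did not use strand.

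SENP1 and SENP3, proteases that release SUMO from its targets, had values on opposite sides of 0, and neither passed the test. SENP1 (ENSG00000079387, chr12:48042898-48106308) was at 57.6, 55.3 and 58.4 CPM with overexpression and at 76.2, 61.1 and 63.3 CPM in the controls. All overexpression values lay below all control values, but the gap was small outside control replicate 1. The fitted log2 ratio of overexpression to control was -0.23 ± 0.11 (SE, unadjusted p 0.0667, edgeR adjusted p 0.797), and -0.12 without control replicate 1. Groups that do not overlap with overexpression lower are found for 6.5% of the 15055 genes tested.

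SENP3 (ENSG00000161956, chr17:7561875-7571969), a nucleolar protease that prefers SUMO2 and SUMO3, was at 72.5, 62.0 and 58.9 CPM with overexpression, and at 56.6, 65.7 and 31.5 CPM in the controls. Control replicate 3 stood far below the rest, and the other values overlapped. The fitted log2 ratio of overexpression to control was 0.33 ± 0.24 (SE, edgeR adjusted p 0.798), and 0.077 without control replicate 3. SENP3 overlaps the readthrough gene SENP3-EIF4A1 on the same strand, and 39.2% of the SENP3 stretches of 31 bases are found in it. The readthrough gene had 793, 0 and 0 counts with overexpression and 140, 491 and 1880 in the controls. The library with the lowest SENP3 count was thus the one with the highest readthrough count. Overexpression replicate 1, with the highest SENP3 count (1026), had 793 readthrough counts, so the counts did not run opposite across all libraries.

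Adding the readthrough counts to SENP3 turned its direction, to a log2 ratio of -0.54 ± 0.39 (SE, edgeR adjusted p 0.799). With EIF4A1, the downstream partner, added as well, the joint value was 0.063 ± 0.11 (SE, edgeR adjusted p 0.912). No direction can be given for SENP3 from these gene counts. EIF4A1, which encodes an RNA helicase of translation initiation, had a log2 ratio of 0.33 ± 0.10 (SE, edgeR adjusted p 0.797). Its groups did not overlap, with overexpression higher, which is found for 6.4% of all genes tested. The readthrough gene overlaps EIF4A1 too. Control replicate 3 had the lowest EIF4A1 value, 182 CPM, and the highest readthrough value, 154 CPM. The EIF4A1 value thus carries the same limit as that of SENP3.

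RNF4 had the widest swing of the 8 genes, and it split the overexpression libraries. RNF4 (ENSG00000063978, chr4:2462220-2625320) was at 175, 32.6 and 159 CPM with overexpression, and at 43.9, 30.8 and 33.5 CPM in the controls. The counts were 2479, 458 and 1976 with overexpression against 477, 362 and 408. Replicates 1 and 3 were far above every control library, and replicate 2 lay among them. The fitted log2 ratio of overexpression to control was 1.76 ± 0.52 (SE, unadjusted p 0.00882, edgeR adjusted p 0.797). Permuting the 6 log2(CPM + 0.5) values exactly, two-sided, gave p = 0.3.

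RNF4 did not pass with all 6 libraries, and it passed only when overexpression replicate 2, the library that lay among the controls, was left out. Without that library the log2 ratio was 2.21 and the edgeR adjusted p was 0.00438. That fit called 16 of 15337 genes tested, against 6 of 15055 with all 6 libraries. In the other 5 fits that left out a library the log2 ratio of RNF4 lay between 1.41 and 1.93 without passing. Across all alternatives the adjusted p ran from 0.00438 to 0.979. SUMO3 did not show this split: overexpression replicate 2, with 115 CPM of SUMO3, was close to replicate 3 with 117 CPM. The annotated span of RNF4 ends at chr4:2625320 and that of FAM193A starts at chr4:2625261, so both genes overlap only at these ends. The sum of both genes, which takes in all FAM193A counts, had a log2 ratio of 1.05 ± 0.32 (SE, edgeR adjusted p 0.796). FAM193A alone was at -0.030 ± 0.16 (SE, edgeR adjusted p 0.975).

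The study examined miR-18a-3p as a partner of the circle, and the 3′ UTRs of the 8 genes were searched for the heptamer that pairs with the seed of this microRNA. The microRNA is shown with its seed (bases 2 to 8) in capitals, from RefSeq (GRCh38.p14), and both matches with the paired heptamer in capitals, from GENCODE 29 transcripts (GRCh38).
hsa-miR-18a-3p: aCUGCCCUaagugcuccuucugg
RNF4 upstream match: gcaagataaatAGGGCAGgcacgtgtttg
RNF4 downstream match: tggagttgaagAGGGCAGaatccgcagct
RNF4 was the only gene of the 8 with a match, at chr4:2514626-2514632 and chr4:2515400-2515406 in the 3′ UTR of transcript ENST00000314289.12. SUMO3 had 0 matches in 1410 bases of annotated 3′ UTR, and SUMO2 had 0 in 2753 bases. At least 1 match of AGGGCAG, searched on the transcript strand in the 3′ UTRs of all coding transcripts, was present in 24.7% of the 12635 genes searched. A match describes the letters only and says nothing of binding in these cells.

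Across all 6 libraries, none of the 7 genes besides SUMO3 passed an adjusted p of 0.05, where 0.0399% of all genes tested did (6 of 15055), 0.0266% with overexpression higher and 0.0133% lower. DESeq2 also called 0 of the 7, where it called 0.186% of the genes it adjusted. At an unadjusted p under 0.05 there was 1 of 7, RNF4, where 5.5% of all genes tested are found. Exact two-sided permutation tests of the 7 genes gave unadjusted p from 0.1 to 0.9. With 3 against 3 libraries this test cannot go below 0.1, so it cannot pass the threshold.

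The order of the 8 genes per length differed between the groups below UBA2 and SAE1. In the controls it ran UBA2 (56.8 ± 1.87 CPM per kb), SAE1 (53.5 ± 4.68), SUMO2, SUMO3, SENP3 (13.98 ± 4.83), SENP1 (10.5 ± 1.28), PIAS1 (8.57 ± 1.49) and RNF4 (4.96 ± 0.956), each with its SD and n = 3. Neighbours overlapped for UBA2 and SAE1, for SENP3 and SENP1, and for SENP1 and PIAS1. With overexpression RNF4 stood at 16.8 ± 10.7 CPM per kb and SENP1 at 9.004 ± 0.249 CPM per kb (SD, n = 3 each). The values of RNF4 reached across those of SENP3, SENP1 and PIAS1. In overexpression replicate 2 RNF4 was at 4.49 CPM per kb, below the lowest PIAS1 value of 6.91. The mean of RNF4 thus stood above those of SENP1 and PIAS1, and that of SUMO3 above that of SUMO2, with overlapping values for SUMO3 and SUMO2. The SUMO2 values leave out reads counted on its pseudogenes, so the order of SUMO3 and SUMO2 with overexpression is not settled. The mean of SENP3 kept its place, but its values leave out the readthrough counts and overlapped those of the next gene in both groups, so that place is not settled. UBA2 and SAE1 were the highest in both groups.

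The wider pathway was read from 35 listed genes in 7 roles, of which 34 were tested. Leaving out SUMO3, 12 had a log2 ratio above 0 and 21 below, and edgeR and DESeq2 each called 0 of 33. The median over all 34 was -0.053, where the median over all genes tested was 0.0023. Apart from SUMO3, RNF4 and SENP3, the 31 remaining genes lay between -0.35 and 0.38, and all 31 values were under 1.5-fold. An unadjusted p under 0.05 was found for 3 of 33 (9.09%, against 5.5% of all genes tested): RNF4, RNF111 and RANBP2.

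**Figure D3:**
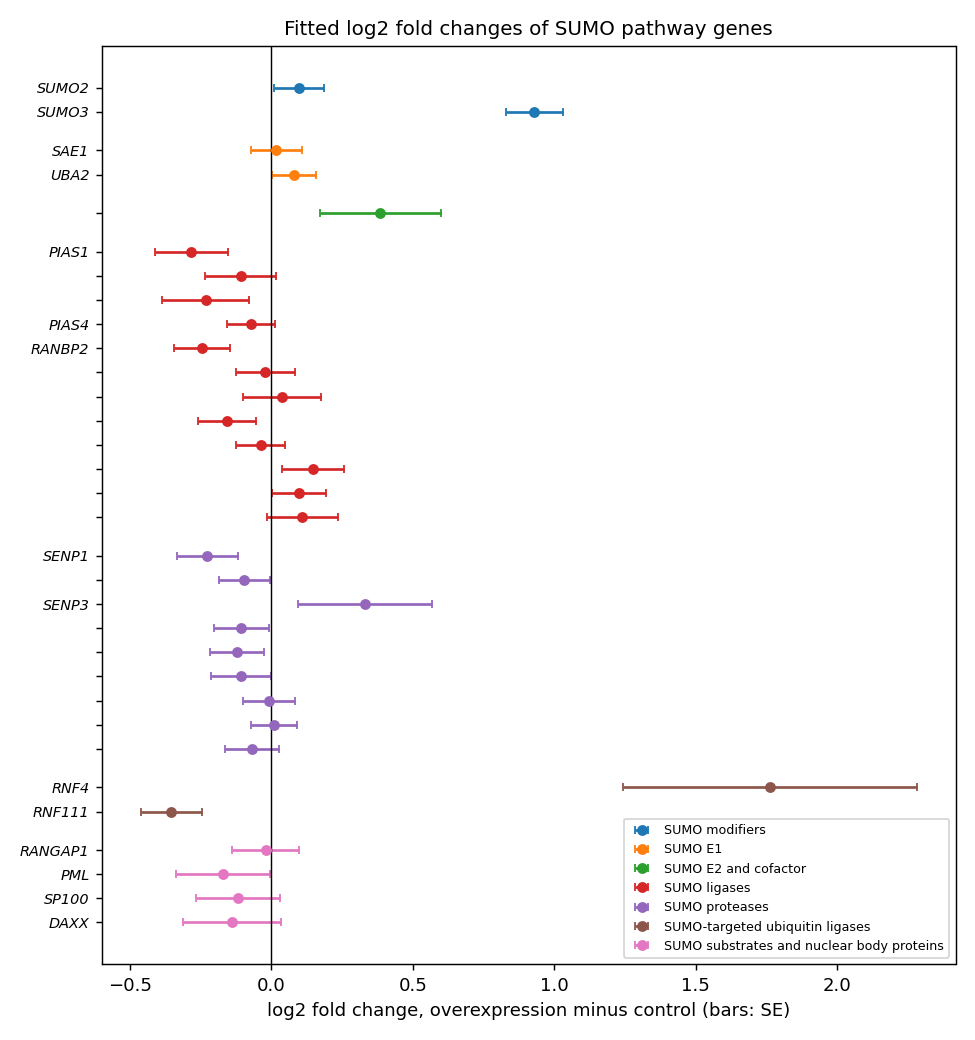
Fitted log2 fold change (overexpression over control) with its standard error for SUMO pathway genes tested, grouped by role, with the genes named in the text labelled. SUMO3 at 0.93 and RNF4 at 1.76 stand to the right of the other genes, and RNF4 has the longest error bar.

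By role, 8 of 12 ligases and 7 of 9 proteases had values below 0, with medians of -0.055 and -0.096, where 7454 of the 15055 genes tested lay below 0. The 4 substrates and nuclear body proteins (RANGAP1, PML, SP100 and DAXX) all had values below 0, with a median of -0.13. They are named here after their values were seen, and 0 of them passed the test. RNF111 (ENSG00000157450, chr15:58865175-59097419), the other ubiquitin ligase for SUMO chains, was at 29.5, 30.4 and 28.3 CPM with overexpression and at 40.1, 33.8 and 38.8 CPM in the controls. Every overexpression value was below every control value, with a log2 ratio of -0.35 ± 0.11 (SE, unadjusted p 0.0102, edgeR adjusted p 0.797). RNF111 and RNF4 thus lay on opposite sides of 0.

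RANBP2 (ENSG00000153201, chr2:108719481-108785811), a large nuclear pore protein with SUMO ligase activity, was at 340, 394 and 406 CPM with overexpression and at 484, 424 and 443 CPM in the controls. The groups did not overlap, and the log2 ratio was -0.25 ± 0.099 (SE, unadjusted p 0.0372, edgeR adjusted p 0.797). The PIAS4 groups did not overlap by a smaller margin, at 58.4 ± 2.26 against 61.4 ± 1.08 CPM (SD, n = 3 each). PIAS4 had a log2 ratio of -0.072 ± 0.086 (SE, edgeR adjusted p 0.867). With SENP1, these were the 4 of 33 genes (12.1%) whose groups did not overlap with overexpression lower, against 6.5% of all genes tested. With overexpression higher there were 0 of 33, against 6.4%.

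Control replicate 1 was the highest of the 6 libraries for 13 of the 34 pathway genes (38.2%), against 26.6% of all genes tested. Without it the pathway median was -0.017, and 14 genes besides SUMO3 lay above 0 and 19 below. The part of this library's mitochondrial share in those values was not tested.

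**Figure D4:**
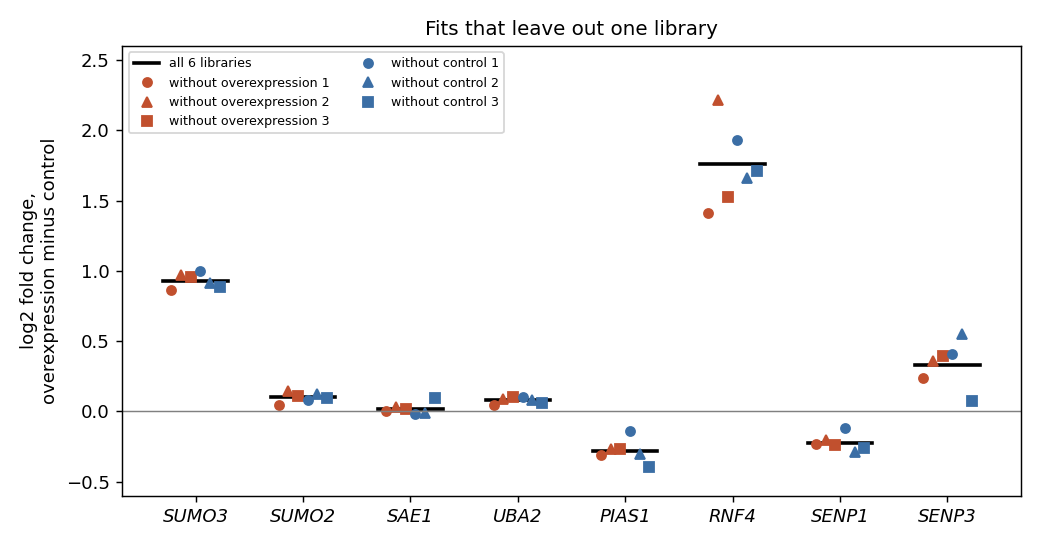
Log2 fold change of the 8 genes with all 6 libraries (black bar) and with each library left out (orange for overexpression, blue for control libraries, symbol by replicate). SUMO3 stays between 0.86 and 1.00, RNF4 ranges from 1.41 to 2.21, and SENP3 ranges from 0.077 to 0.55.

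No neighbour of SUMO3 on chromosome 21 passed the test. Within 500 kb on either side, 17 other genes were tested, 11 with a log2 ratio above 0 and 6 below, with a median of 0.074. EdgeR and DESeq2 each called 0 of 17, and 0 of 17 had an unadjusted p under 0.05, against 5.5% of all genes tested. UBE2G2, which encodes a ubiquitin-conjugating enzyme of the endoplasmic reticulum, lies 3598 bases from SUMO3 and was at -0.14 ± 0.10 (SE, edgeR adjusted p 0.798). PTTG1IP, 30806 bases away on the other side, was at -0.013 ± 0.091 (SE, edgeR adjusted p 0.981), a value that turned to 0.0026 with upper-quartile normalisation and to 0.011 on the FPKM scale. LINC00205 was the 1 neighbour without overlap between groups, at 2.29 ± 0.330 against 1.86 ± 0.105 CPM (SD, n = 3 each), where 6.4% of all genes tested were higher without overlap. TSPEAR-AS1 had the highest neighbouring value, 0.61 ± 0.35 (SE, edgeR adjusted p 0.797), at 1.27 against 0.826 CPM.

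**Figure D5:**
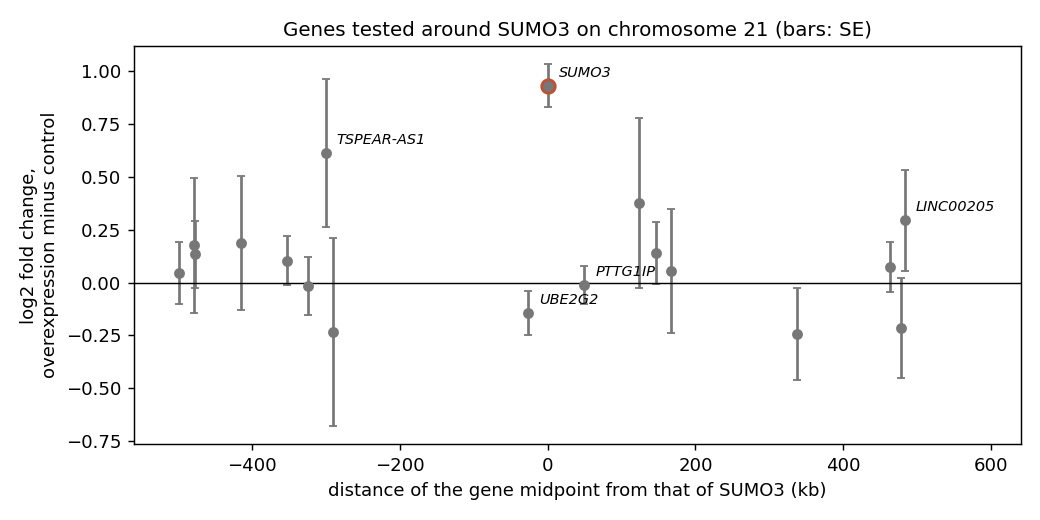
Log2 fold change with its standard error for SUMO3 (orange) and the 17 genes tested within 500 kb, against the distance of their midpoints in kb. SUMO3 at 0.93 stands above its neighbours, whose values run from -0.24 to 0.61.

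Genes whose profile over the 6 libraries was most like that of SUMO3 were listed by the root mean square difference of centred log2(CPM + 0.5) values, among 9948 genes with a mean of at least 10 CPM. They were PBX2 (0.12), NAA30 (0.13), LYRM1 (0.17), DUSP3 (0.20) and UGT2B11 (0.22), where the median over the genes compared was 0.49. PBX2, a homeobox gene, was at 51.7, 52.4 and 57.5 CPM with overexpression and at 31.04, 27.6 and 29.6 CPM in the controls. NAA30, the catalytic subunit of an N-terminal acetyltransferase, was at 46.3 ± 3.17 against 28.0 ± 3.16 CPM (SD, n = 3 each). DUSP3, a phosphatase, was at 64.4 ± 4.58 against 32.7 ± 4.82 CPM (SD, n = 3 each). A like profile over 6 libraries in 2 groups is a description only.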

How the data were processed

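Total RNA of Huh7 cells was sequenced in 6 libraries, and titles put 3 libraries in each group. For every gene, the deposited table gives raw read counts by library beside FPKM values computed by the authors. Per the submitters' processing notes, TopHat2 2.0.9 and hg38 were used. The counting tool, annotation release and strand handling are not given in the sources used here. GENCODE 29 held 98.5% of the IDs, 94.8% of them at the same coordinates.

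Counts were tested with edgeR 4.0.16 (R 4.3.3): TMM after filterByExpr (minimum count 10), glmQLFit and glmQLFTest with group as the only term, two-sided, Benjamini-Hochberg adjusted over 15055 genes. CPM used TMM library sizes over all gene counts. CPM per kb used merged GENCODE 29 exons. Chi-square per degree of freedom between replicates was 10.1 to 20.9, so no library repeated another. Same-numbered libraries did not deviate together (correlations of -0.036, -0.023 and -0.031), which cannot tell whether they were prepared together. A pairing by number is not stated, so the main fit had no replicate block. Alternatives used DESeq2 1.42.0 and limma 3.58.1 on log2(FPKM + 1) from the deposited FPKM. Scripts were tested on simulated counts. The members and gene lists were chosen with earlier results of these data known. Named were the members, listed SUMO genes that passed the test or did not overlap, and copies of members with at least 10 counts. Also named were genes within 500 kb of SUMO3 and the 5 genes most like it. The 4 substrates, genes that overlap a member and AC005000.1 were named after their values were seen. Values of some listed genes are not reported here, though these genes are kept in the numbers of genes.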

Additional observations from a re-analysis of the deposited data

How the results depend on the processing

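SUMO3 stayed between 0.86 and 1.00 (log2) under all alternatives, with FPKM at 0.92 and the replicate block at 0.93, and no pseudogene or readthrough gene of SUMO3 was listed. The SUMO3 share of the SUMO2 and SUMO3 pool differed by 14.1 percentage points, and by 13.4 to 15.4 when one library was left out. With a replicate block no member besides SUMO3, which was not tested, passed the threshold (RNF4 1.48, SENP3 0.39, PIAS1 -0.27, SENP1 -0.22, SUMO2 0.097), and it changed no call of these genes. When one library was left out, RNF4 ran from 1.41 to 2.21, passing without overexpression replicate 2, so the pathway genes called besides SUMO3 ran from 0 to 1. The fit without that library called 16 of 15337 genes tested, against 6 of 15055 with all 6 libraries. In the fits that left out one library SAE1 ran from -0.020 to 0.093 and PTTG1IP from -0.065 to 0.033. SENP3 turned to -0.54 with readthrough counts added, and PTTG1IP to 0.0026 with upper-quartile normalisation and 0.011 with limma on FPKM. The pathway median (-0.053) was -0.038 with upper-quartile normalisation, -0.031 without a filter and -0.012 with limma on FPKM, and ran from -0.057 to -0.017 with one library left out. The cause was not tested. SUMO2, UBA2, PIAS1, SENP1, RANBP2, RNF111 and PIAS4 kept their direction and stayed short of the threshold under all alternatives. The sums with EIF4A1 and FAM193A and the alternatives for genes outside the 8 and for the SUMO3 share were chosen after seeing the data. SUMO4, at 1 to 6 counts per library, was included without the filter on low counts, where 0 pathway genes besides SUMO3 were called.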

Other observations

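Other ubiquitin-like systems were read for comparison from 18 listed genes, all tested. Of these, 13 had a log2 fold change above 0 and 5 below, with a median of 0.074. Leaving out one library moved the median from 0.046 (without overexpression replicate 1) to 0.15 (without control replicate 3). The number above 0 ran from 11 to 15 (without overexpression replicate 3). Without control replicate 1, the library with the high mitochondrial share, 11 genes lay above 0 and 7 below, with a median of 0.054. The part of that share in these values was not tested. EdgeR and DESeq2 each called 0 of 18, against 0.0399% and 0.186% of the genes each tested. An unadjusted p under 0.05 was found for 1 of 18, against 5.5% of all genes tested. NEDD8, the modifier that activates cullin ubiquitin ligases, was at 69.1, 72.0 and 83.9 CPM with overexpression and at 66.8, 55.8 and 55.4 CPM in the controls. The NEDD8 groups did not overlap, and the log2 fold change was 0.34 ± 0.12 (SE, edgeR unadjusted p 0.0198, adjusted p 0.797). Groups that do not overlap with overexpression higher are found for 6.4% of all genes tested, and for 2 of these 18. The 7 listed E1 and E2 enzymes of these systems had a median of 0.0031.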
